A study of Mus musculus with 17 samples.

Results

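A set of 10 genes that bring fatty acids into liver cells, bind them in the cytosol or activate them was followed in 17 mouse liver RNA-seq libraries. The genes were chosen by name: the membrane proteins Cd36, Slc27a2 and Slc27a4, the fatty acid binding proteins Fabp1, Fabp2, Fabp4 and Fabp5, and the acyl-CoA synthetases Acsl1, Acsl4 and Acsl5. Each name matched 1 row of the 48440 genes in the normalized count table, and all 10 genes were among the 14588 with a mean of at least 10 normalized counts that entered the tests. The study set 6 livers of wild-type B6 mice aged 2 months (WT_2mon, 4 male and 2 female) against 5 livers of wild-type B6 mice aged 2 years (WT_2year, 3 male and 2 female) and 6 livers of miR-29 transgenic mice aged 2 months (TG_2mon, 5 male and 1 female). The labels give neither the promoter that drives the transgene nor the strain of the transgenic mice. Batch A held 10 libraries, prepared at UNC with an Illumina TruSeq polyA kit, and batch B held 7, prepared at Cornell with a NEBNext Ultra II Directional kit. All 5 female libraries were in batch A. The labels name the livers as separate samples and nothing further ties them to animals or litters, so the p-values measure the spread between these libraries.

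Long-chain fatty acids reach the hepatocyte from the blood, cross the membrane with the help of CD36 and the fatty acid transport proteins, and are carried through the cytosol by small binding proteins, of which FABP1 is the main one in liver. Acyl-CoA synthetases then couple them to coenzyme A, which traps them in the cell and commits them to oxidation or to triglyceride and phospholipid synthesis. CD36 is a scavenger receptor for long-chain fatty acids and oxidized lipoproteins whose transcript is low in male and higher in female rodent liver. miR-29 is a family of microRNAs that repress transcripts through matches to a shared seed in the 3′ UTR.

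The mature miR-29 sequences are shown because the transgenic mice carry a miR-29 transgene, whose family member the labels do not give. The capitals mark the seed, bases 2 to 8, which is the same in all of them. The sequences are RefSeq's on GRCm38.p6: miR-29a-3p is on chr6:31062673-31062694 (− strand), miR-29c-3p on chr1:195037600-195037621 (+ strand), and miR-29b-3p on both chr6:31063025-31063047 (− strand) and chr1:195037091-195037113 (+ strand).
miR-29a-3p: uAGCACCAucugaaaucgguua
miR-29b-3p: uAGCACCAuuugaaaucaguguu
miR-29c-3p: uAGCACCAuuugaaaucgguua
The DNA letters that pair with the seed, TGGTGCT, were looked for on the transcript's strand of each gene's longest 3′ UTR in GENCODE M21 (GRCm38). None of the 10 genes held them, from Fabp1 with a 3′ UTR of 69 bases to Acsl4 with one of 2684 bases. Of the 21008 genes with a 3′ UTR of at least 30 bases, 2989 (14.2%) held at least 1 match. A match or its absence says only whether these letters stand in that stretch. The 4 miR-29 genes were listed at 0 in all 17 libraries, so these polyA libraries gave no measure of the transgene's product.

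The deposited values were normalized counts, that is gene counts divided by a size factor for each library. They summed to 28077001 to 44543936 per library, and the read depth behind them is unknown. No 2 libraries were identical (highest correlation 0.985). Of the 6 hepatocyte markers, Alb among them, none passed the test in either comparison with young wild-type livers (0 at an unadjusted limma p under 0.05 in old livers and 2 in transgenic ones). Their summed level was 2530340 to 4085940 in young wild-type livers, 2372380 to 3770790 in old ones and 1847590 to 5374670 in transgenic ones. All 7 neutrophil markers rose in transgenic livers, beside 2.89% of all genes. Their summed level was 421 to 44058 there against 28.1 to 476 in young wild-type livers. Beside endothelial and macrophage markers described with Fabp4, the other markers called there were Slc4a1 (20.8-fold, limma adjusted p = 0.000658) and Hbb-bt (6.29-fold, adjusted p = 0.0385) of 4 erythroid markers and Ighm of the B cell list (3.81-fold, adjusted p = 0.00811), which rose, and the pancreas marker Cela1, which fell (log2 −2.38, adjusted p = 0.0023). Other members of these lists were fitted lower there and did not pass. They were the erythroid markers Hba-a1 (log2 −2.09, limma adjusted p = 0.160) and Alas2 (−1.09, adjusted p = 0.315) and the B cell marker Cd79a (−2.10, adjusted p = 0.0517). The summed erythroid level was 4086 to 75556 in young wild-type and 3537 to 148955 in transgenic livers. In old livers Ighm was the only cell type marker called (9.65-fold, limma adjusted p = 0.0066), and the summed B cell level was 99.2 to 382 in young wild-type, 1075 to 3877 in old and at most 1220 in transgenic livers. Their part in the results was not tested. In bulk tissue, fewer cells of a type and less RNA per cell cannot be told apart.

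Per kilobase of the principal transcript, Fabp1 had by far the highest mean level of the 10 in young wild-type livers, at 310884 normalized counts per kb. Slc27a2 followed at 8466 and Fabp5 at 6087 per kb, then Fabp2 (3745), Acsl1 (3594) and Acsl5 (3023), and the ranges of neighbours in this order overlapped over the 6 libraries. Fabp4 (514), Cd36 (396), Acsl4 (345) and Slc27a4 (289) were lowest, and their ranges overlapped too. Fabp1 was the 16th to 39th most abundant of all genes by normalized count in the 6 young wild-type livers.

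**Figure D1:**
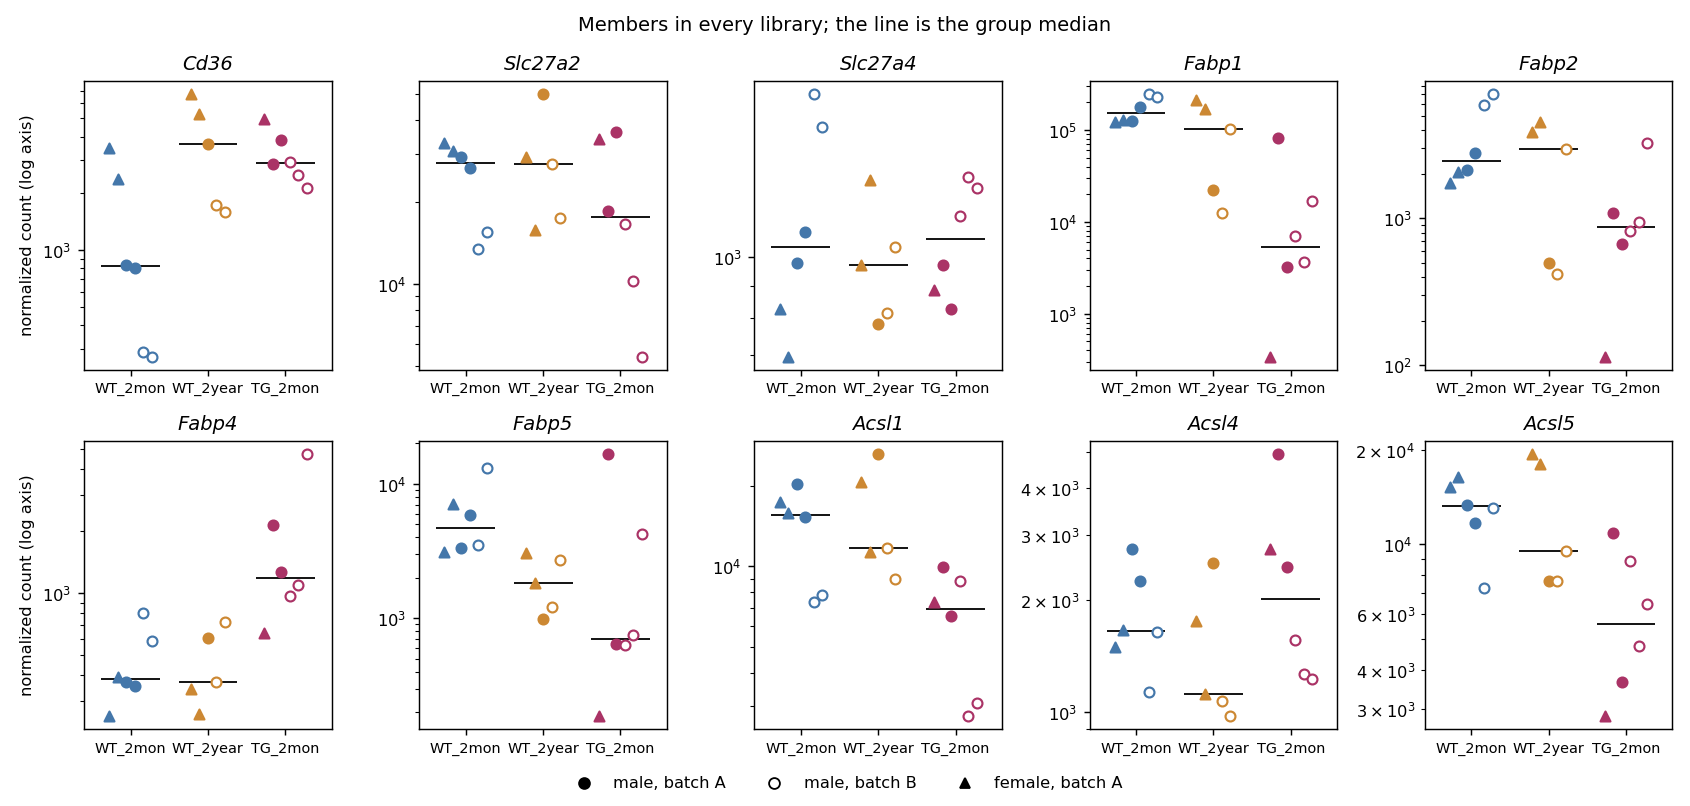
Normalized counts (log axis) of the 10 genes in each of the 17 libraries by group, with circles for males, triangles for females, filled symbols for batch A, open symbols for batch B and a line at the group median. Cd36 is lowest in the young wild-type males (272 to 835), and Fabp1 in the transgenic livers (340 to 81659) lies below all 6 young wild-type livers.

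Cd36 (ENSMUSG00000002944, chr5:17781690-17888801, − strand, GRCm38) was the only one of the 10 genes that rose in old livers. In young wild-type livers its normalized count was lowest at 272, had a median of 821 and was highest at 3493. The old livers had 6719 and 5287 in the 2 females and 3664, 1728 and 1598 in the 3 males. The 4 young males had 272 to 835 and the 2 young females 2385 and 3493, so the old males were all above the young males and the old females all above the young females, as in 0.98% of all genes, while old males overlapped young females.

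After adjustment for batch and sex, Cd36 was 3.66-fold higher in old than in young wild-type livers (log2 fold change 1.87 ± 0.29 (SE), limma adjusted p = 0.0139, n = 5 and 6). This was 1 of 10 genes called, beside 0.144% of all genes tested in this comparison (0.096% higher). The 3 old males did not overlap the 4 young males, which was the case for 3.86% of all genes in this direction. In males alone the log2 fold change was 2.33 (limma adjusted p = 0.00771). The call was lost without old replicate 3, the only old male of batch A (1.76, limma adjusted p = 0.0728), and within batch A (1.53, adjusted p = 0.337) and batch B (2.56, adjusted p = 0.101), each of which holds fewer libraries. It was also lost with no batch and sex terms (1.89, limma adjusted p = 0.717).

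In the 6 transgenic livers the Cd36 count was 2145 at its lowest, 2894 at the median and 4988 at its highest. The highest was the single transgenic female, and all 5 transgenic males (2145 to 3826) lay above all 4 young wild-type males, a pattern that 2.85% of all genes showed in this direction. Cd36 was 4.51-fold higher than in young wild-type livers (log2 2.17 ± 0.28, limma adjusted p = 0.000252, n = 6 and 6). It kept the call within batch A (1.49, adjusted p = 0.037) and batch B (3.16, adjusted p = 0.00457), and without any 1 library (1.997 to 2.43), and missed it with no batch and sex terms (1.82, adjusted p = 0.097).

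Transgenic and old livers, compared directly, differed in Cd36 by 0.30 ± 0.30 on the log2 scale (limma adjusted p = 0.687, 95% interval −0.32 to 0.93). The 2 comparisons with young wild-type livers share those 6 libraries. The female term of the same fit was 1.22 ± 0.31 for Cd36 (limma adjusted p = 0.145), and 1.52 without the single transgenic female (adjusted p = 0.0225). None of the 10 genes passed the limma test between the sexes, where 0.26% of all genes did, and 2 of them, Cd36 and Acsl4, had an unadjusted p under 0.05.

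Genes with sex-biased expression in mouse liver moved beside Cd36. All 6 of a short list of male-biased genes fell in transgenic livers, beside 3.83% of all genes. Of 6 female-biased genes 5 rose, beside 2.89% of all genes. The transgene effect, female minus male, had a median log2 value of 4.65 for the male-biased list. For the female-biased list it was −7.07. Both values rest on 1 transgenic female. The summed level of the female-biased genes was 8.60 to 51427 in young wild-type livers, 12854 to 54743 in transgenic livers and 156 to 216511 in old livers. That of the male-biased genes was 6023 to 2192260 in young wild-type livers, 1870 to 18024 in transgenic livers and 2432 to 499213 in old livers. In old livers 1 of the 6 male-biased genes, Slco1a1, fell (log2 −5.50, limma adjusted p = 0.0161), 5 had an unadjusted p under 0.05, and the list's median log2 fold change was −3.44. None of the female-biased genes passed there, where 3 had an unadjusted p under 0.05 and the median was 2.92. The part of both lists in the Cd36 results was not tested. The 5 genes whose levels over the 17 libraries were most like Cd36, with batch and sex terms removed, were Ric3 (Pearson r 0.917, Spearman rho 0.869), Cyp2c38 (0.915, 0.853), BC023829 (0.904, 0.914), Serpina3m (0.899, 0.909) and Ildr2 (0.894, 0.892). These correlations are a description, and the libraries share the same 3 groups.

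The fatty acid transport proteins did not pass the test in any comparison. Slc27a2 (ENSMUSG00000027359, chr2:126552407-126588243, + strand), a transporter of the liver that also activates very long-chain fatty acids, had normalized counts of 13395, 27842 and 32973 (lowest, median, highest) in young wild-type livers. In old livers it had 29200, 15733, 49740, 27569 and 17505, and in transgenic livers 5391, 17535 and 36047. The groups overlapped, and in young wild-type livers the 2 males of batch B (13395 and 15476) were the lowest. Its log2 fold change was 0.23 ± 0.34 in old livers (95% interval −0.50 to 0.95, limma adjusted p = 0.837) and −0.35 ± 0.33 in transgenic livers (−1.04 to 0.35, adjusted p = 0.607).

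Slc27a4 (ENSMUSG00000059316, chr2:29802634-29817522, + strand), a transport protein known mainly from intestine and skin, had normalized counts of 695, 1037 and 1814 in young wild-type livers, 784, 970 and 1323 in old livers and 827, 1068 and 1339 in transgenic livers. All 3 groups overlapped. On the log2 scale it differed by −0.22 ± 0.21 in old livers (95% interval −0.67 to 0.23, limma adjusted p = 0.745) and −0.13 ± 0.21 in transgenic livers (−0.57 to 0.30, adjusted p = 0.776).

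Fabp1 (ENSMUSG00000054422, chr6:71199827-71205023, + strand), the liver fatty acid binding protein, had the largest difference of the 10 genes, a fall in transgenic livers. Young wild-type livers had 121126, 153663 and 246150 normalized counts (lowest, median, highest). The transgenic livers had 81659 and 3197 in the batch A males, 340 in the female, and 6934, 3690 and 17074 in the batch B males. Every transgenic liver lay below every young wild-type liver, as it did for 1.84% of all genes in this direction.

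The adjusted log2 fold change of Fabp1 was −4.90 ± 1.01 in transgenic livers (limma adjusted p = 0.00709, n = 6 and 6), 29.8-fold lower, with a 95% interval of 6.77-fold to 131-fold lower. The ratio of the plain means was 9.14-fold, and transgenic replicate 1 held most of the group's summed counts. Without that library the log2 fold change was −5.79 (limma adjusted p = 0.00103), and without the female, the lowest library, it was −3.68 (adjusted p = 0.019). Within batch A it was −5.08 (adjusted p = 0.121) and within batch B −4.97 (adjusted p = 0.0477). Fabp1's rank among all genes went from 48th in transgenic replicate 1 to 7032nd in the transgenic female.

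In old livers the Fabp1 counts of the females and of the males lay on opposite sides of the young ones of the same sex. The old females had 214162 and 168857 normalized counts, above both young females (121126 and 129142), and the old males had 22143, 12520.2 and 103438, below all 4 young males (126382 to 246150). No overlap of the males in this direction was seen for 3.48% of all genes and no overlap of the 2 old and 2 young females in theirs for 28.9%. Both together were seen for 1.33%. Over all old livers the log2 fold change was −1.32 ± 1.05 (limma adjusted p = 0.689), and the difference of the age effect between females and males was 4.89 ± 1.60 on the log2 scale (limma adjusted p = 0.114), a test that 0.048% of all genes passed. Old against transgenic livers gave −3.57 ± 1.07 for transgenic (adjusted p = 0.0931). That comparison passed the test without old replicate 4 (−4.36, adjusted p = 0.0354) and without transgenic replicate 1 (−4.34, adjusted p = 0.016).

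The stretch upstream of Fabp1 is shown because its fall was the largest and because PPARα, the receptor for fatty acids in hepatocytes, is known to act through direct repeats of this kind. RefSeq promoters were found for 8 of the 10 genes, Fabp4 and Fabp5 being unmatched. The 198 bases of its window before the GENCODE gene start are on GRCm38 chr6:71199629-71199826 (+ strand). They hold 1 match to a direct repeat with 1 base between its parts, AGGNCANAGGNCA, on the − strand, marked in capitals. The match starts 15 bases before the GENCODE gene start and at −67 from the RefSeq start site, which lies further downstream.
Fabp1 upstream: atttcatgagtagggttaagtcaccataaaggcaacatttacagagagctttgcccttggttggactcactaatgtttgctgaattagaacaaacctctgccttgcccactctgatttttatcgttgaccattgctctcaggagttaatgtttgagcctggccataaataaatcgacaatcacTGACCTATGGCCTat
Both strands of the whole RefSeq windows, which reach past the start, were searched, and 125 of 32851 promoters (0.381%) held the repeat. Of the 8 promoters searched, Fabp1's alone held these letters. The match is a description of the sequence and no factor's binding was measured.

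Fabp2 (ENSMUSG00000023057, chr3:122895072-122899506, + strand), the intestinal fatty acid binding protein, had 1732, 2471 and 6999 normalized counts in young wild-type livers and 114, 877 and 3278 in transgenic livers. Transgenic replicate 6 was the only 1 of the 6 within the young range. The difference of −2.14 ± 0.71 on the log2 scale (95% interval −3.65 to −0.64) missed the threshold (limma adjusted p = 0.0840). It passed without old replicate 4, which is in neither of the 2 groups but shares the fit (−2.24, adjusted p = 0.0279). Fabp2 is best known from intestine, and the sum of 6 intestine markers was 2.11 to 9.80 in young wild-type livers and 1.47 to 15.1 in old ones. In transgenic livers it was 134 in replicate 2, where none of the 6 markers was at 0, and 0.663 to 8.89 in the other 5. Fabp2 was 670 in replicate 2, and without that library its log2 fold change was −2.21 (limma adjusted p = 0.123).

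In old livers Fabp2 had 3898 and 4516 in the females and 498, 421 and 2951 in the males. As with Fabp1, both old females were above both young females (1732 and 2077), as in 28.9% of all genes, and old replicates 3 and 4 were far below the young males (2149 to 6999). The log2 fold change over all old livers was −1.02 ± 0.74 (limma adjusted p = 0.671). The age effect was 4.36 ± 0.91 higher in females than in males (log2, limma adjusted p = 0.0914), and this passed without old replicate 5 (5.08, adjusted p = 0.0239).

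**Figure D2:**
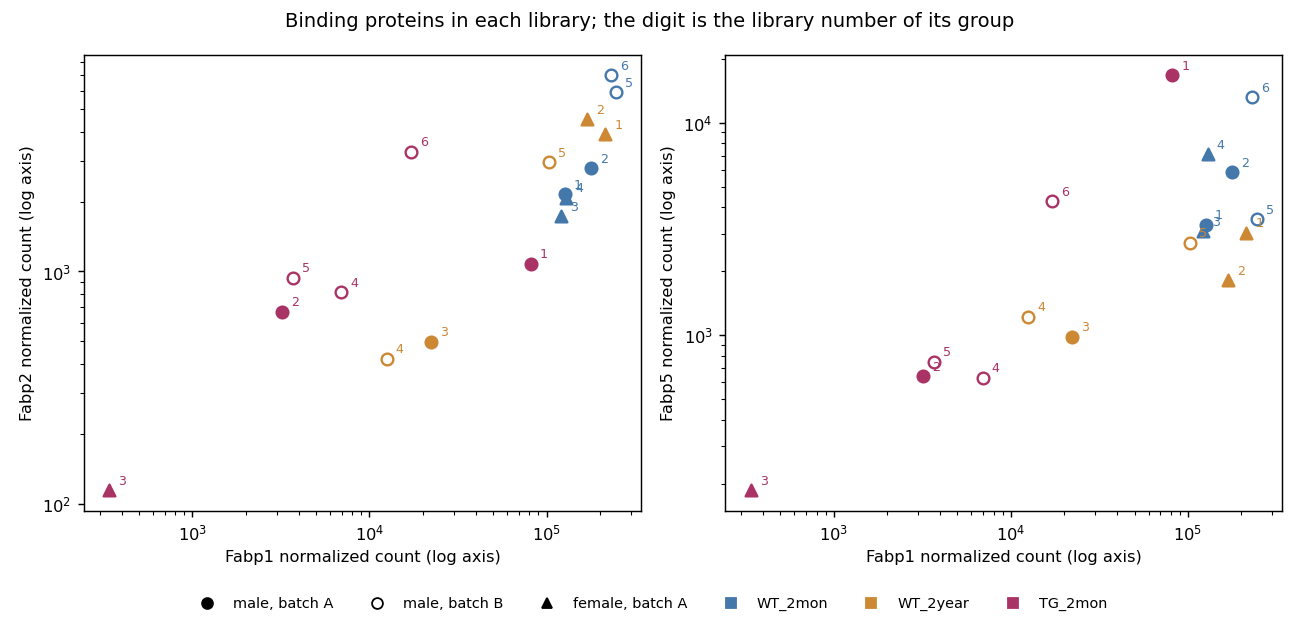
Fabp2 (left) and Fabp5 (right) against Fabp1 in each library, all as normalized counts on log axes, coloured by group, with symbols for sex and batch and the library's number beside each point. The transgenic female (number 3) is lowest in all 3 genes, at 340, 114 and 187, and transgenic number 1 is the highest of all 17 libraries in Fabp5, at 16726.

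The same libraries were low in several binding proteins. The transgenic female was lowest of the 17 in Fabp1, Fabp2 and Fabp5. Old replicates 3 and 4 had the lowest values of the old group in all 3. Fabp1 made up 91.7 to 96.0% of the summed counts of the 4 binding proteins in young wild-type livers and 26.5 to 80.4% in transgenic livers.

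Fabp5 (ENSMUSG00000027533, chr3:10012548-10016607, + strand), the epidermal fatty acid binding protein, had 3096, 4675 and 13179 normalized counts in young wild-type livers. The old livers had 3035, 1820, 984, 1223 and 2727, all 5 below all 6 young ones, which was so for 0.26% of all genes in this direction. The gap was narrow, from 3035 to 3096, and the log2 fold change of −1.48 ± 0.84 did not pass (95% interval −3.25 to 0.30, limma adjusted p = 0.610). The authors' deposited table gave −1.74 with an adjusted p of 0.00322 for the same comparison.

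In transgenic livers Fabp5 ranged from 187 through a median of 696 to 16726. In 4 of the 6 the count was below every young wild-type liver, replicate 6 (4267) was within their range, and replicate 1 was above it. Over the group the log2 fold change was −2.14 ± 0.81 (limma adjusted p = 0.128), and −3.01 without replicate 1 (adjusted p = 0.00513), so that library decides whether the test was passed.

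Fabp4 (ENSMUSG00000062515, chr3:10204088-10208576, − strand), the binding protein of adipocytes, macrophages and capillary endothelium, lies on the same chromosome as Fabp5. It rose in transgenic livers. It had 254, 383 and 801 normalized counts in young wild-type livers, 345, 259, 608, 371 and 728 in old livers, and 644, 1184 and 4756 in transgenic livers. Of the 6 transgenic livers, 5 were above every wild-type liver of either age, and the transgenic female (644) was above both young females (254 and 395) but within the wild-type range.

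The log2 fold change of Fabp4 was 1.57 ± 0.35 against young wild-type livers (2.97-fold, limma adjusted p = 0.0121). It was 1.54 ± 0.37 against old livers (2.90-fold, limma adjusted p = 0.0365), with no overlap of the males, as in 2.09% of all genes in this direction. The first kept the call without any 1 library (1.29 to 1.73), 1.29 being without replicate 6, and missed it within batch B (1.32, adjusted p = 0.313). The second missed it in 9 of the 17 fits without 1 library, with a highest adjusted p of 0.0808, as its value stayed between 1.23 and 1.71. It passed in 6 of 14 other settings and was lost, among others, with no batch and sex terms (1.74, limma adjusted p = 0.0716), only the 2 groups (1.48, adjusted p = 0.134), males alone (1.64, adjusted p = 0.160), batch A (1.41, adjusted p = 0.0999) and batch B (1.72, adjusted p = 0.442). In old against young wild-type livers the value was 0.03 ± 0.37 (95% interval −0.74 to 0.81).

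Markers of cell types that express Fabp4 were read beside it. Of 10 endothelial markers, Stab2 (1.44 ± 0.27) and Vwf (1.35 ± 0.35) rose in transgenic against young livers, beside 2.89% of all genes. In that comparison 8 of the 10 were fitted above 0, and the list's median was 0.22 beside 0.01 over all genes. Against old livers none of the 10 passed, 4 were fitted above 0 and the median was −0.008 beside 0.02. The summed endothelial level was 5843 to 9291 in young wild-type, 7564 to 10992 in old and 7368 to 17404 in transgenic livers, and its highest library, transgenic replicate 6, was also the highest in Fabp4. Of the 5 adipocyte markers, Adipoq and Lep were at 0 in every transgenic liver, Plin1 was at most 1.99 and Cfd at most 0.567 there. The fifth, Lipe, which is not confined to adipocytes, made up nearly all of the list's sum, which was 168 to 644 in young wild-type, 230 to 768 in old and 236 to 490 in transgenic livers. Cfd was lower in transgenic than in old livers (log2 −3.84 ± 0.81, limma adjusted p = 0.0166), where it was 0.979 to 135, and did not pass against young ones (−1.99, adjusted p = 0.140). None of 6 Kupffer cell markers passed in transgenic against young livers. Of 6 markers of recruited macrophages, Spp1 fell there (log2 −1.21, limma adjusted p = 0.0372). The other 5 were fitted higher without passing, and the list's median was 0.69 beside 0.01 over all genes. The largest were Gpnmb (1.91, limma adjusted p = 0.0770) and Trem2 (1.14, adjusted p = 0.118). Against old livers no marker of either macrophage list passed, and the medians were −0.32 (Kupffer) and −0.10 (recruited). The part of endothelial and macrophage transcripts in the Fabp4 result was not tested.

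Acsl1 (ENSMUSG00000018796, chr8:46471037-46536051, + strand), the main long-chain acyl-CoA synthetase of liver, fell in transgenic livers. Its normalized counts were 7344, 15546 and 20326 in young wild-type livers, 20772, 11313, 26381, 11741 and 8978 in old livers and 2752, 6954 and 9954 in transgenic livers. The transgenic livers overlapped the 2 young males of batch B (7344 and 7797) and no other young liver. The log2 fold change was −1.04 ± 0.27 against young wild-type livers (2.06-fold lower, limma adjusted p = 0.0284) and −1.30 ± 0.29 against old livers (2.46-fold lower, adjusted p = 0.0211).

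The fall of Acsl1 was near the threshold. Leaving out 1 library gave −1.26 to −0.94 with adjusted p up to 0.0741 against young livers, and the call was lost without young replicates 1, 3, 4 or 6 or transgenic replicates 2, 3, 5 or 6. Of 15 other settings, 9 passed against young livers. It was lost with no filter on low values (limma adjusted p = 0.0512), quantile normalization (−0.78, adjusted p = 0.152), no batch and sex terms (−1.18, adjusted p = 0.116), males alone (−0.97, adjusted p = 0.104), batch A (−1.18, adjusted p = 0.0657) and batch B (−0.84, adjusted p = 0.364). Against old livers the call was lost without old replicates 1, 3 or 5 or transgenic replicate 5 (highest adjusted p = 0.0709), and 8 of 14 other settings passed. It was lost with quantile normalization (−1.14, limma adjusted p = 0.0755), no batch and sex terms (−1.34, adjusted p = 0.152), only the 2 groups (−1.33, adjusted p = 0.104), males alone (−1.44, adjusted p = 0.0751), batch A (−1.33, adjusted p = 0.0912) and batch B (−1.28, adjusted p = 0.432). In old against young wild-type livers the value was 0.25 ± 0.28 (95% interval −0.34 to 0.85, limma adjusted p = 0.773).

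Acsl5 (ENSMUSG00000024981, chr19:55251938-55297720, + strand), a synthetase of mitochondria and the endoplasmic reticulum, had 7257, 13192 and 16417 normalized counts in young wild-type livers and 2849, 5610 and 10882 in transgenic livers. Of the 6 transgenic livers, 4 were below every young one. The log2 fold change was −1.09 ± 0.35 (95% interval −1.82 to −0.36) with a limma adjusted p of 0.0692. It passed without transgenic replicate 1 (−1.32, adjusted p = 0.0228) or 4 (−1.23, adjusted p = 0.0443). In old livers Acsl5 had 19391 and 18013 in the females, above both young females (15203 and 16417) as in 28.9% of all genes, and 7636, 7636 and 9548 in the males, within the range of the young males. The age difference was −0.14 ± 0.36 (adjusted p = 0.913).

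Acsl4 (ENSMUSG00000031278, chrX:142317993-142390535, − strand), which prefers arachidonic acid, had 1130, 1655 and 2751 normalized counts in young wild-type livers, 975, 1121 and 2522 in old livers and 1231, 2014 and 4960 in transgenic livers. All groups overlapped. Its log2 fold change was 0.34 ± 0.20 in transgenic livers (95% interval −0.09 to 0.77, limma adjusted p = 0.369) and −0.21 ± 0.21 in old livers (−0.66 to 0.24, adjusted p = 0.75).

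**Figure D3:**
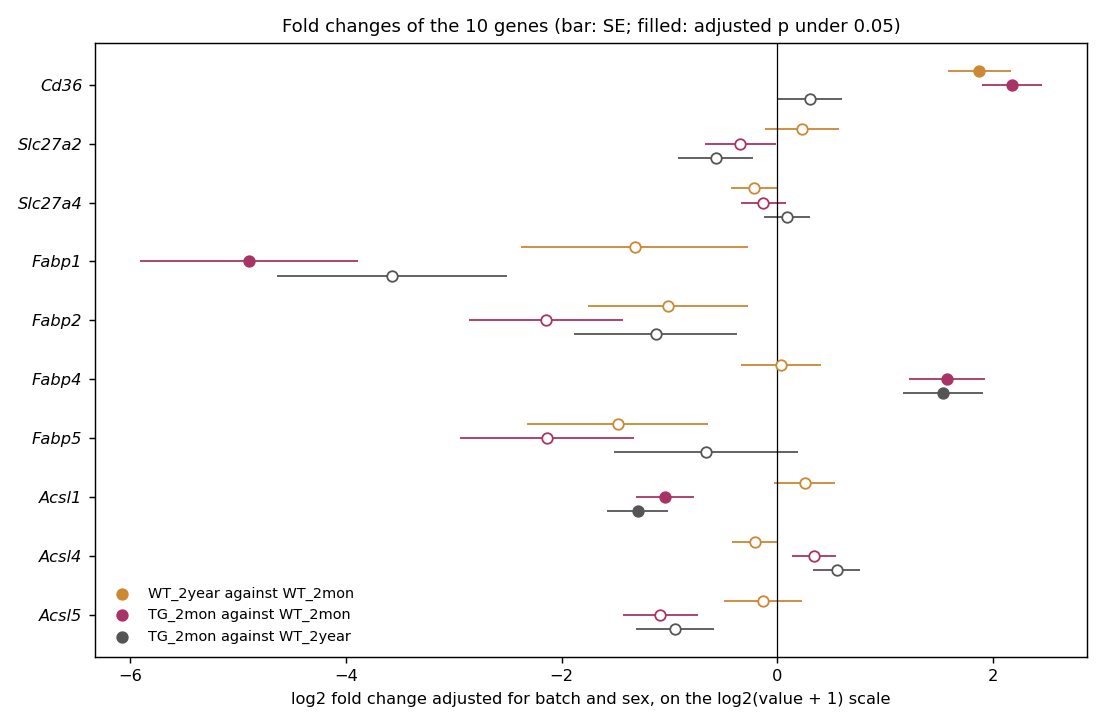
Log2 fold changes of the 10 genes on the log2(value + 1) scale in the 3 comparisons, adjusted for batch and sex, with bars for the standard error and filled points where the adjusted p was under 0.05. Filled points are Cd36 alone for old against young (1.87), Cd36, Fabp1, Fabp4 and Acsl1 for transgenic against young, and Fabp4 and Acsl1 for transgenic against old.

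In all, 4 of the 10 genes passed in transgenic against young wild-type livers, Cd36 and Fabp4 higher and Fabp1 and Acsl1 lower, beside 6.71% of all genes (2.89% higher and 3.83% lower). Transgenic against old livers gave 2 of 10, Fabp4 higher and Acsl1 lower, beside 2.55% of all genes (0.713% higher and 1.84% lower). The authors' deposited table for transgenic against young livers also listed Fabp2 (−2.16, adjusted p = 3.56e-06) and Acsl5 (−1.04, adjusted p = 0.0241) under 0.05, with 14.1% of its genes there. None of the 10 genes passed the test of a difference of the age effect between sexes or batches (0.048% and 0% of all genes passed), with 5 and 1 at an unadjusted limma p under 0.05. None passed it for the transgene effect either (2.41% of all genes between sexes and 0.0411% between batches), again with 5 and 1 at an unadjusted p under 0.05. These unadjusted counts have no share of all genes beside them and are not read as results. The transgene effect of Fabp1 differed by −5.85 ± 1.68 in the female (limma adjusted p = 0.0829), a value that rests on 1 transgenic female.

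Dbp, an output gene of the circadian clock that was looked at after its values were seen, also separated libraries within batch B. Its normalized count was 7242 and 8460 in the young wild-type livers of batch B, 3990 and 7228 in the old ones and 566, 471 and 76.3 in the transgenic ones. In batch A it was 66.3 to 402 in young wild-type, 295 to 3595 in old and 468 to 880 in transgenic livers. The part of this difference in the results was not tested.

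Other genes that handle fatty acids were read from a list of 34, of which 25 entered the tests. None passed in old livers by limma, where 3 had an unadjusted p under 0.05, and the list's median log2 fold change was 0.11 beside −0.003 over all genes. The share of all genes under that unadjusted threshold was not computed. In this comparison 15.8% of all genes had a limma p no higher than the 0.0964 of Fabp5, so the count of 3 is not read as a result about the list. The 3, named after their values were seen, were the thioesterases Acot2 (1.72), Acot3 (4.39) and Acot4 (1.61), which split acyl-CoA back to the free acid, with adjusted p of 0.206, 0.0803 and 0.125. They are close paralogs, so reads may be split among them. The authors' deposited table called 3 genes of the list.

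In transgenic livers 5 of the 25 fell and none rose, beside 3.83% of all genes lower and 2.89% higher, with a median of −0.08 beside 0.01 over all genes. Dbi, the acyl-CoA binding protein, fell by 1.92 ± 0.56 on the log2 scale (limma adjusted p = 0.0481). Its counts were 22250, 29180 and 32800 in young wild-type and 1386, 9225 and 25079 in transgenic livers, which overlapped. Acbd5, a peroxisomal acyl-CoA binding protein, fell by 0.74 ± 0.21 (adjusted p = 0.0400).

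Of the 5, 3 act on lipoproteins in the blood. Hepatic lipase, Lipc, fell by 1.47 ± 0.35 (limma adjusted p = 0.0192). Its transgenic range of 1180 to 2255 lay below the young one of 3568 to 7925, as in 1.84% of all genes in this direction. Endothelial lipase, Lipg, fell by 2.31 ± 0.59 (adjusted p = 0.0272). Angptl4, an inhibitor of lipoprotein lipase and a known target of PPAR receptors, fell by 1.37 ± 0.28 (adjusted p = 0.00640), and its 3′ UTR holds 1 match to the miR-29 seed, in capitals below, at GRCm38 chr17:33774979-33775001 (− strand).
Angptl4 site: tacactcaTGGTGCTgttgtagg

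Of 19 genes of lipid droplets and triglyceride synthesis, none passed by limma in old livers (3 at an unadjusted p under 0.05, 1 in the authors' deposited table) and 2 fell in transgenic ones, beside 3.83% of all genes, with a median of −0.16 beside 0.01. Plin2, the coat protein of hepatocyte lipid droplets, fell by 1.84 ± 0.39 (limma adjusted p = 0.00865), from a range of 7157 to 12725 to one of 781 to 5523. The ranges did not overlap, as in 1.84% of all genes in this direction, and Plin2 was named because it passed on these same values. Fitm1, a membrane protein that partitions triglyceride into droplets, fell by 3.76 ± 0.52 (adjusted p = 0.000397), from 110 to 820 normalized counts to 9.54 to 87.6. Against old livers 3 were lower in transgenic livers, beside 1.84% of all genes: Plin2 (−2.24 ± 0.41, adjusted p = 0.00725), Fitm1 (−4.88 ± 0.54, adjusted p = 0.000196) and the droplet-fusing protein Cidec (−3.33 ± 0.60, adjusted p = 0.00612).

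**Figure D4:**
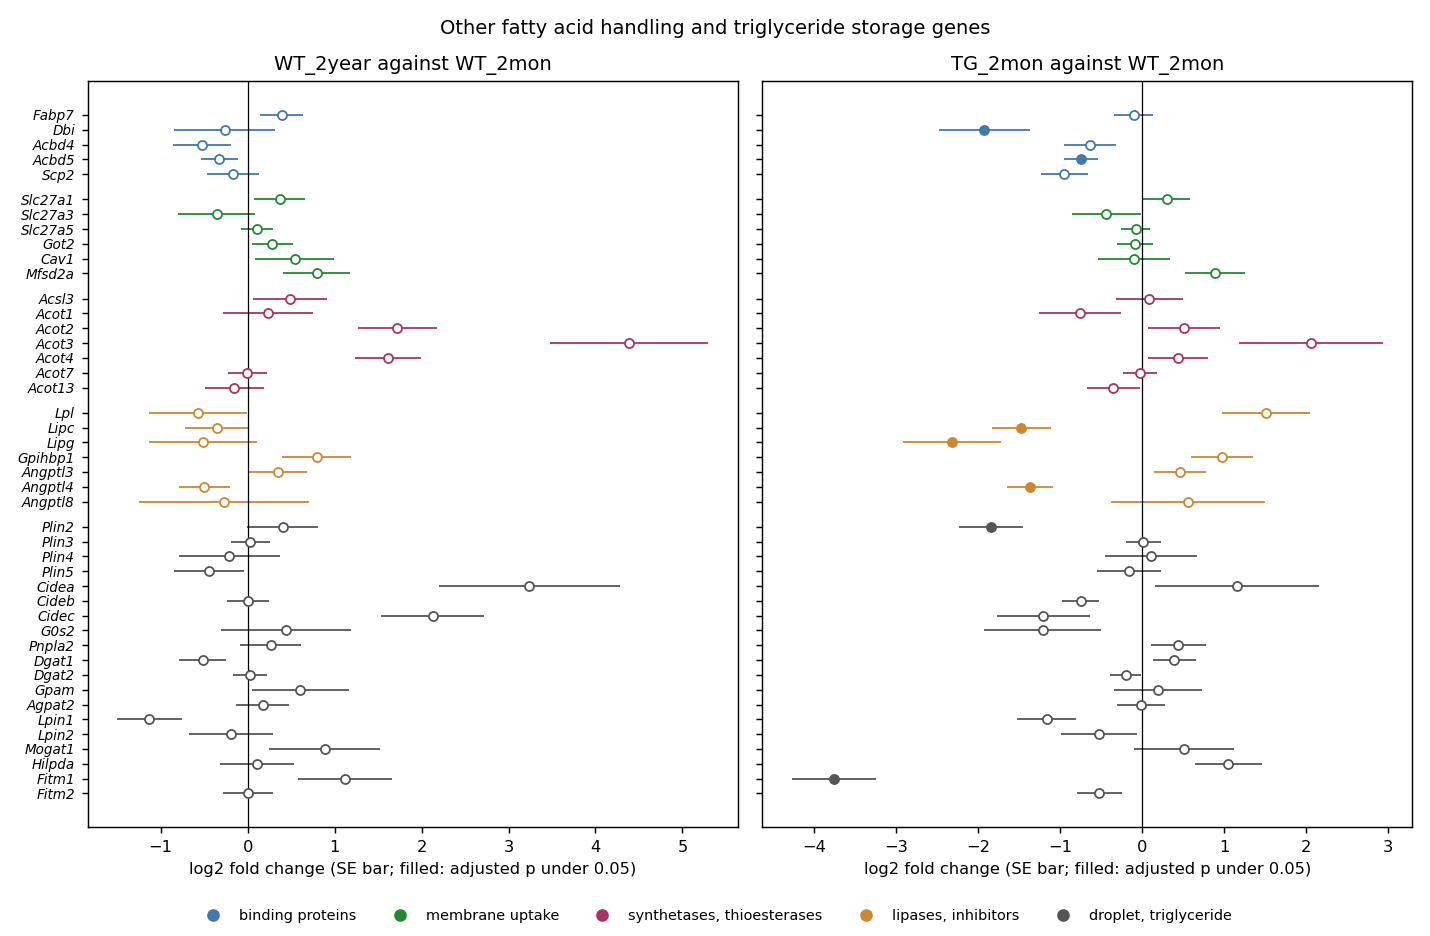
Log2 fold changes with standard errors of the other fatty acid handling genes and the triglyceride storage genes, in old (left) and transgenic (right) against young wild-type livers, coloured by role and filled where the adjusted p was under 0.05. No point is filled on the left, and the filled points on the right, from Acbd5 (−0.74) to Fitm1 (−3.76), all lie below 0.

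Of 16 transcription factors and cofactors that act on these genes, none passed by limma in old livers (3 at an unadjusted p under 0.05, 3 in the authors' deposited table). In transgenic livers 3 rose and 1 fell, beside 2.89% of all genes higher and 3.83% lower. Pparg, a receptor under which Cd36 and Fabp4 are known to be transcribed, rose by 1.04 ± 0.22 (limma adjusted p = 0.00875), with 126 to 244 normalized counts in young wild-type and 158 to 572 in transgenic livers. Ppara, the main fatty acid receptor of hepatocytes, fell by 1.44 ± 0.37 (adjusted p = 0.0284), with 757 to 2967 in young wild-type and 135 to 987 in transgenic livers, and the groups overlapped.

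The cofactor Ppargc1a rose by 1.48 ± 0.41 against young (limma adjusted p = 0.0394) and by 2.09 ± 0.43 against old livers (adjusted p = 0.0161). Its 3′ UTR holds a seed match at GRCm38 chr5:51454857-51454879 (− strand).
Ppargc1a site: acccgaacTGGTGCTttagaaat
Cux2, a female-biased liver repressor, rose by 4.83 ± 0.88 (adjusted p = 0.00272), from a young wild-type median of 20.2 normalized counts to a transgenic median of 579. Of the 68 genes of these 3 lists with a 3′ UTR to search, 7 held a match and all 7 were tested: Angptl4 fell, Ppargc1a rose, and Lpl, Gpam, Lpin1, Hnf4a and Ahr did not pass. Of the 61 without a match 52 were tested, of which 2 rose and 6 fell. Among the marker and sex-biased genes 5 of 78 held a match, and of the 4 tested Stab2 rose and the others did not pass. Of the 73 without a match 60 were tested, of which 15 rose and 8 fell. Over all genes tested 2.89% rose and 3.83% fell.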

How the data were processed

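Liver polyA RNA-seq was deposited for 17 libraries. The genome build mm10 and the tools DESeq2, Salmon 0.6.0 and STAR 2.5.3a are named without roles, per the submitters' processing notes. The deposited signal values are the authors' DESeq2 normalized counts. The authors' deposited tables also give a log2 fold change, a score (that change over its standard error), p-values and adjusted p-values, after batch and sex correction. Of the low values, 47.2 to 69.3% lay within 0.1 of a whole read, so reads were not recovered and no count model was run.

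Genes with a mean of at least 10 were tested on log2(value + 1) with limma 3.58.1 (R 4.3.3; lmFit, eBayes with trend), with terms for group, batch and sex over all 17 libraries. Fold changes are on that scale, which understates low genes. Tests are two-sided, with Benjamini-Hochberg adjustment over 14588 genes and a threshold of 0.05. Counts at an unadjusted p under 0.05 are descriptions, as the share of all genes there was not computed. Interactions were added 1 at a time. Other pseudocounts, filters, scalings, covariates, sample sets and variance models, and leaving out each library, were tried as alternatives. The script was tested on simulated data. Named genes were all 10 members, at most 5 passing genes per list, and the 5 most like Cd36. The members and lists were chosen with earlier results of these data known. The labels do not say that replicate numbers pair the libraries, and the main fit used no pairing.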

Additional observations from a re-analysis of the deposited data

Results flagged for a closer look

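In 4 of the 30 sets of 5 or 6 libraries checked (10 genes in 3 groups), 1 library stood further from the others than Dixon's limit allows, all of them in the transgenic group. Chance alone gives about 1 such set in 20 for normally distributed values. These sets hold counts on a linear scale and mix sexes and batches, and their own rate was not computed. Fabp1 had 81659 normalized counts in transgenic replicate 1 and 340 to 17074 in the other 5. Fabp5 had 16726 in the same library and 187 to 4267 in the others. Fabp2 had 3278 in transgenic replicate 6 and 114 to 1079 in the others, and Fabp4 had 4756 in that library and 644 to 2140 in the others.

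The age effect on Fabp1 was flagged because both old females lay above both young females and all 3 old males below all 4 young males, as in 1.33% of all genes. The difference of the effect, female minus male, was 4.89 on the log2 scale, and its test did not pass (limma adjusted p = 0.114).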

How the results depend on the processing

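Leaving out each library in turn, the number of the 10 genes called ranged from 0 to 1 for age, 3 to 6 for the transgene, 0 to 2 for transgenic against old and 0 to 1 for sex, and for the sex differences from 0 to 1 (age) and 0 to 2 (transgene). Other fatty acid handling genes gave 0 to 1 (age) and 2 to 6 (transgene), regulators 0 to 1 and 2 to 5, and storage genes 2 to 3 (transgene). Counts over all genes ranged from 9 to 37 for age, 653 to 1311 for the transgene, 161 to 525 for transgenic against old and 16 to 113 for sex.

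Members called for age numbered 0 with no batch and sex terms, in batch A and in batch B, and 2 in the authors' deposited table. For the transgene they numbered 2 with no such terms, in batch A and in batch B. For transgenic against old they numbered 1 with no filter, quantile normalization or no trend, and 0 with no such terms, only the 2 groups, males only, batch A or batch B. Sample weights gave 2 members for sex and 2 for each sex difference. Other handling genes for the transgene numbered 3 with no filter, quantile normalization, upper-quartile scaling or no trend, 1 with no terms or batch A, 0 in batch B and 10 in the authors' deposited table. For age they numbered 1 with only the 2 groups or males only and 3 in the authors' deposited table. Regulators for the transgene numbered 1 with no terms, males only or batch B and 2 in batch A, and for age 3 in the authors' deposited table. Storage genes for the transgene numbered 4 with only the 2 groups, 0 in batch B and 5 in the authors' deposited table, and for age 1 with sample weights and 1 in that table.

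With the replicate number as a block, 0 members were called for age (Cd36 1.85, adjusted p = 0.119), 5 for the transgene and 1 for transgenic against old, where Fabp4 missed (1.32, adjusted p = 0.0539), and 2 regulators for the transgene. Same-numbered libraries correlated from −0.227 to 0.593. Sex and batch were not removed from these values, so they cannot decide whether the numbers pair the libraries.

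Signs that turned were all of members that missed the test in that comparison. For age they were Acsl5 with quantile normalization (0.0349), Fabp4 in batch B (−0.40), Slc27a2 in batch A (−0.0427) and Slc27a4 in batch A (0.18) and with weights (0.0252). For the transgene they were Acsl4 in batch B (−0.021) and Slc27a4 in batch A (0.0042) and with weights (0.0309). For transgenic against old they were Cd36 with no terms (−0.0726) and in batch A (−0.037), Fabp2 in males (0.47) and batch B (0.29), Fabp5 in males (0.31) and Slc27a4 in batch A (−0.18). For sex they were Fabp1 with the block (0.28) and weights (0.10), Fabp2 in batch A (−0.10) and Slc27a4 in batch A (−0.045) and with weights (−0.14). Leaving out 1 library gave −0.29 to 0.0534 for Acsl5 and −0.0899 to 0.22 for Fabp4 (age), −1.40 to 0.12 for Fabp5 and −0.078 to 0.23 for Slc27a4 (transgenic against old), and for sex −1.34 to 0.83 for Fabp1, −0.39 to 1.05 for Fabp2, −1.26 to 0.0924 for Fabp5 and −0.14 to 0.16 for Slc27a4. Where a fit held fewer libraries, that is its construction, and the cause of the other shifts was not tested. A count test was not run because whole reads could not be recovered.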
